A study of Mus musculus with 8 samples.

Results

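The genes described here make, take up, degrade and sense prostaglandins, and they were chosen by symbol from a list of 30 names. The rule uses no measured values, but the list was drawn up with earlier results of these data known. The deposited data held 28 genes under these symbols, of 18691 genes in all, since Plaat3 and Ptgdr2 are the current names of genes listed as Pla2g16 and Gpr44. They were measured by sequencing of polyadenylated RNA in epididymal white adipose tissue, the visceral fat beside the epididymis of the male mouse. The series compared wild-type mice (WT, 4 libraries, numbered 1, 2, 3 and 4) with mice labelled as lacking Mrp4 (Mrp4-/-, here Mrp4 KO, 4 libraries, numbered 1, 2, 4 and 5). All were of the strain C57BL/6J and 16 weeks old, and neither the knockout allele nor a treatment is described in the labels. Mrp4, encoded by Abcc4, belongs to the ATP-binding cassette transporters and carries prostaglandins and cyclic AMP out of cells. Whether each library is a separate mouse is not stated, so p-values measure the spread between libraries, which may be technical.

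Prostaglandins are local lipid signals. A phospholipase frees arachidonic acid from membrane lipid, a cyclooxygenase turns it into the unstable prostaglandin H2, and terminal synthases turn that into prostaglandin E2, D2, F2alpha, prostacyclin or thromboxane A2. The signal ends when the uptake carrier Slco2a1 brings the prostaglandin into a cell and Hpgd oxidises it. In adipocytes, prostaglandin E2 is best known for restraining lipolysis through the receptor encoded by Ptger3, which lowers cyclic AMP, whereas the receptors encoded by Ptger2 and Ptger4 raise cyclic AMP.

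Of the 25 tested genes of this list, 3 differed between the groups at an adjusted p under 0.05. That is 12%, beside 18.3% of all 14257 tested genes. The prostaglandin E synthases Ptges (gene 64292) and Ptges2 (gene 96979) fell in the libraries labelled Mrp4 KO, by 1.02 ± 0.25 and 0.61 ± 0.14 on the log2 scale (SE, n = 4 per group; edgeR adjusted p = 0.0258 and 0.0205). The prostaglandin E receptor Ptger2 (gene 19217) rose, with a log2 fold change of 0.72 ± 0.22 (SE; edgeR adjusted p = 0.0470). The 250 bases before the annotated start of each of these 3 genes are printed to show the promoters of the genes that changed, from the RefSeq table of the mouse assembly GRCm38.p6. The reads themselves were placed on mm9, another build, per the submitters' processing notes, so these coordinates belong to the RefSeq table alone. Each sequence runs 5′ to 3′ on the gene's own strand and ends at the base before the start. Capitals mark the matches to the motifs searched.
Ptges, chr2:30903298-30903547, minus strand: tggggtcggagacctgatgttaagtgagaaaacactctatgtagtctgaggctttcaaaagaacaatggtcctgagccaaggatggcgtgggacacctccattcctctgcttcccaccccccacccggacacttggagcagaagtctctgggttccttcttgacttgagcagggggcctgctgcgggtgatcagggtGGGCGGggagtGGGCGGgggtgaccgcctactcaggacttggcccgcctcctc
Ptges2, chr2:32395640-32395889, plus strand: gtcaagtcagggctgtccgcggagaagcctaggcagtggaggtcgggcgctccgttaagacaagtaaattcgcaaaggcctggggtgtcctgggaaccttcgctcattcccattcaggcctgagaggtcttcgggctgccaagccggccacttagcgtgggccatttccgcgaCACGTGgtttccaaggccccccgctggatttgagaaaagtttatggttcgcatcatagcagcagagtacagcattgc
Ptger2, chr14:44987861-44988110, plus strand: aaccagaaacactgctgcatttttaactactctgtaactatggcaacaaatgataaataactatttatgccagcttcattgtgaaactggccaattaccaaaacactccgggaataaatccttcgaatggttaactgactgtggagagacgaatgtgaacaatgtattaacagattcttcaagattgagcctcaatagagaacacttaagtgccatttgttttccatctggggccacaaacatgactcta

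The motifs searched on both strands were the GC box GGGCGG, the cyclic AMP response element TGACGTCA, its half-site TGACG (which the full element contains), the E-box CACGTG and the TATA box TATAAA. The Ptges window held a pair of GC boxes, whose first bases lie 53 and 42 bases before the start. The Ptges2 window held 1 E-box, 77 bases before the start. The Ptger2 window held none of these letters. Over all 32817 windows of the same length in the table, 32.7% held a GC box, 6.02% the E-box, 12.4% the TATA box, 17.7% the half-site and 1.55% the full cyclic AMP response element. Prostaglandin genes were counted where any of their windows held the motif, so their counts are not directly comparable with these shares of windows. Of the 25 prostaglandin genes with a window, 13 held a GC box, 4 a TATA box, 1 (Ptges2) the E-box, 1 (Tbxa2r) the half-site and 0 the full element. The 3 genes that changed thus had no searched motif in common.

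Depth and sample makeup bear on what follows. Each library summed to between 14064681 and 14700114 expected counts. Abcc4 did not differ between the groups by more than the spread: it was at 3.52 ± 0.232 FPKM in WT and 3.60 ± 0.244 FPKM in Mrp4 KO (SD, n = 4; exact two-sided permutation p = 0.571, where the smallest p the design allows is 0.0286). FPKM is a fragment count scaled by transcript length and library depth. The transcript level therefore gave no support for the label, and each direction below is that of the libraries labelled Mrp4 KO. Adipocyte markers summed to 29162 to 33156 FPKM in WT and 23379 to 28018 FPKM in Mrp4 KO, with 1 of 11 higher (Lep) and 4 lower. Macrophage markers summed to 820 to 980 FPKM in WT and 1077 to 1649 FPKM in Mrp4 KO, with 7 of 15 higher and 0 lower. Endothelial markers rose in 6 of 10 and liver markers in 12 of 12, and 1 of 9 mesothelial markers fell (Wt1). Of the mesothelial markers, 9 of 9 had a negative log2 fold change (median -0.73), 5 of them at an unadjusted edgeR p under 0.05. In whole tissue, fewer cells of a type and less RNA per cell cannot be told apart.

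Of the 28 genes, 25 passed the filter on low counts and were tested, 1 rose, 2 fell and 22 did not pass, where passing means an adjusted p under 0.05 (edgeR, quasi-likelihood F test, Benjamini-Hochberg method over all 14257 tested genes). That is 12% of the 25, beside 18.3% of all tested genes, of which 10.2% were higher and 8.05% lower. The difference between these shares was not tested. At an unadjusted p under 0.05 the share was 40% (10 of 25), beside 35.3% of all tested genes. The 4 Mrp4 KO values lay wholly above or wholly below the 4 WT values in 4 of 25 genes (16%, 2 above and 2 below), beside 23.5% of all tested genes. The median log2 fold change was 0.00, as it was over all genes. By role, the 10 tested terminal synthases had a median of -0.21 with 6 negative, whereas the 7 tested receptors had a median of 0.45 with 6 positive. Over all 14257 tested genes, 7063 were positive and 7194 negative. Since members passed the filter partly by their level, these counts describe the tested genes only.

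**Figure D1:**
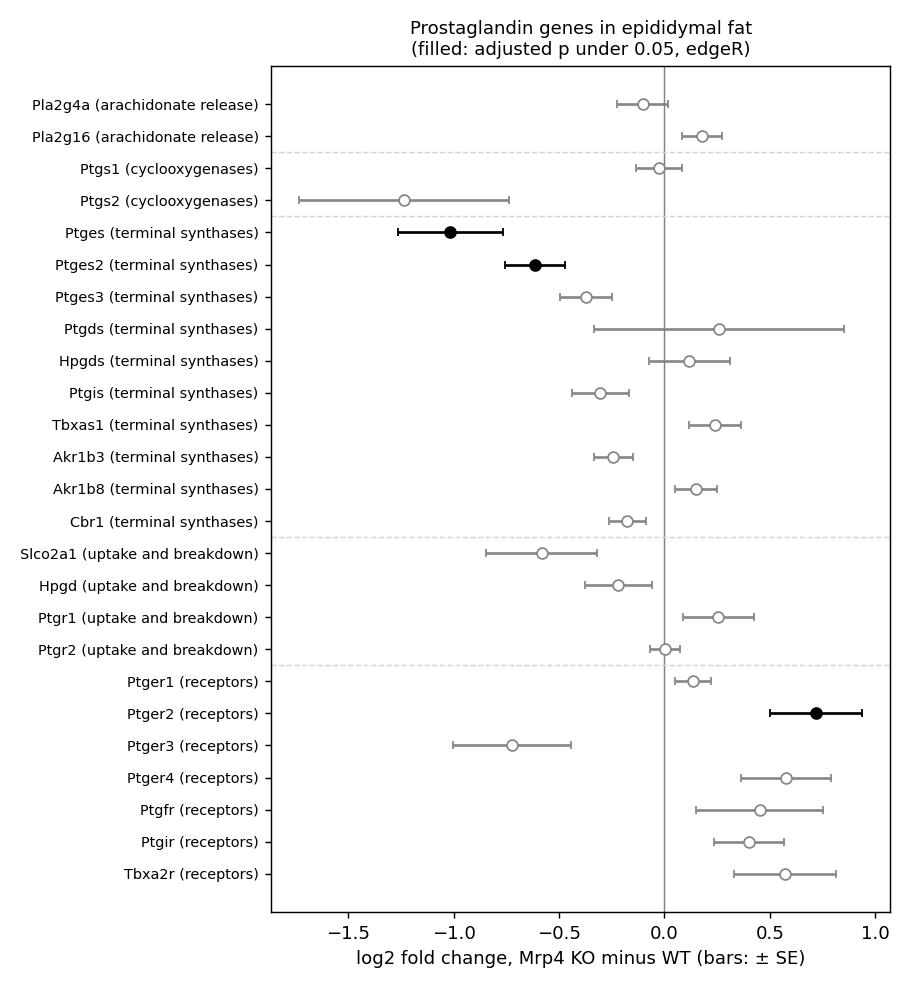
Log2 fold change, Mrp4 KO minus WT, of the 25 tested prostaglandin genes by role (x axis, log2 units; points are edgeR estimates, bars ± SE over 4 libraries per group, filled points have an adjusted p under 0.05). Ptges and Ptges2 lie to the left and Ptger2 to the right as filled points, and 6 of the 7 receptors lie right of 0.

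Among the genes of arachidonate release, Pla2g16 was by far the more abundant. It encodes the phospholipase known as AdPLA, the main supplier of arachidonic acid for prostaglandin E2 in white fat. Its level was 135, 165, 141 and 146 FPKM in WT 1, 2, 3 and 4, and 177, 163, 162 and 194 FPKM in Mrp4 KO 1, 2, 4 and 5, the order of libraries used for every list of values here. The groups overlapped through WT 2, and the difference did not pass (log2 fold change 0.18 ± 0.09, SE; edgeR adjusted p = 0.200). Pla2g4a, the cytosolic phospholipase that acts in most other tissues, was at 3.24 to 4.45 FPKM over all libraries (log2 fold change -0.10, adjusted p = 0.578). Per length, Pla2g16 had the highest mean level of all 28 genes.

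The cyclooxygenases were led by the constitutive form. Ptgs1 was at 12.4, 13.8, 12.4 and 9.32 FPKM in WT and at 13.1, 13.1, 11.1 and 12.0 FPKM in Mrp4 KO. The WT range held 4 of 4 Mrp4 KO values, and the log2 fold change of -0.02 ± 0.11 (adjusted p = 0.892) changed sign with the scaling. Ptgs2, the inducible form, was at 1.20, 4.26, 1.52 and 0.71 FPKM in WT and at 0.75, 1.13, 0.96 and 0.55 FPKM in Mrp4 KO. WT 2 stood well above the rest, and WT 4 lay among the Mrp4 KO values. The log2 fold change was -1.23 ± 0.50 (unadjusted p = 0.034, edgeR adjusted p = 0.111). Without WT 2 it was -0.51 (adjusted p = 0.241), and the WT mean went from 1.92 to 1.14 FPKM. With DESeq2 on all libraries it was -1.24 and passed (adjusted p = 0.0441).

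Of the 10 tested terminal synthases 2 fell and 0 rose, and both that fell make prostaglandin E2. The share that passed was 20%, beside 18.3% of all tested genes. Ptges encodes the membrane-bound microsomal synthase that works with Ptgs2 and makes most inducible prostaglandin E2. Its level was 58.2, 27.3, 30.25 and 24.9 FPKM in WT and 18.0, 16.3, 18.7 and 19.8 FPKM in Mrp4 KO. The lowest WT library lay above the highest Mrp4 KO library, and WT 1 lay far above the other WT libraries. The mean went from 35.2 ± 15.5 to 18.2 ± 1.46 FPKM (SD, n = 4). Without WT 1 the log2 fold change was -0.66 instead of -1.02, with an edgeR adjusted p of 0.00366. Leaving out any of the 4 Mrp4 KO libraries raised the adjusted p to between 0.0565 and 0.0639, past the threshold, with log2 fold changes of -1.06 to -0.96.

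Ptges2, the membrane-associated second form, was at 22.4, 13.9, 15.6 and 17.5 FPKM in WT and at 12.8, 11.0, 11.7 and 12.1 FPKM in Mrp4 KO. Here too each Mrp4 KO library was below each WT library, and WT 1 was the highest. The mean went from 17.4 ± 3.67 to 11.9 ± 0.782 FPKM. Its log2 fold change of -0.61 became -0.72 to -0.46 with 1 library left out, and the edgeR adjusted p rose to 0.0518 to 0.0545 without WT 4, Mrp4 KO 2 or Mrp4 KO 4. Ptges3, the cytosolic form, which is also the chaperone partner p23, was at 46.6, 37.0, 48.2 and 39.1 FPKM in WT and at 33.2, 33.8, 42.0 and 29.2 FPKM in Mrp4 KO. Mrp4 KO 4 lay among the WT values, while the other Mrp4 KO libraries lay below all of WT. The mean went from 42.7 ± 5.52 to 34.5 ± 5.38 FPKM, a log2 fold change of -0.37 ± 0.12 (unadjusted p = 0.013) that missed the threshold over all genes (edgeR adjusted p = 0.0632). It passed without WT 2 (-0.45, adjusted p = 0.0260), without Mrp4 KO 4 (-0.48, adjusted p = 0.0331) and with DESeq2 (adjusted p = 0.0333).

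**Figure D2:**
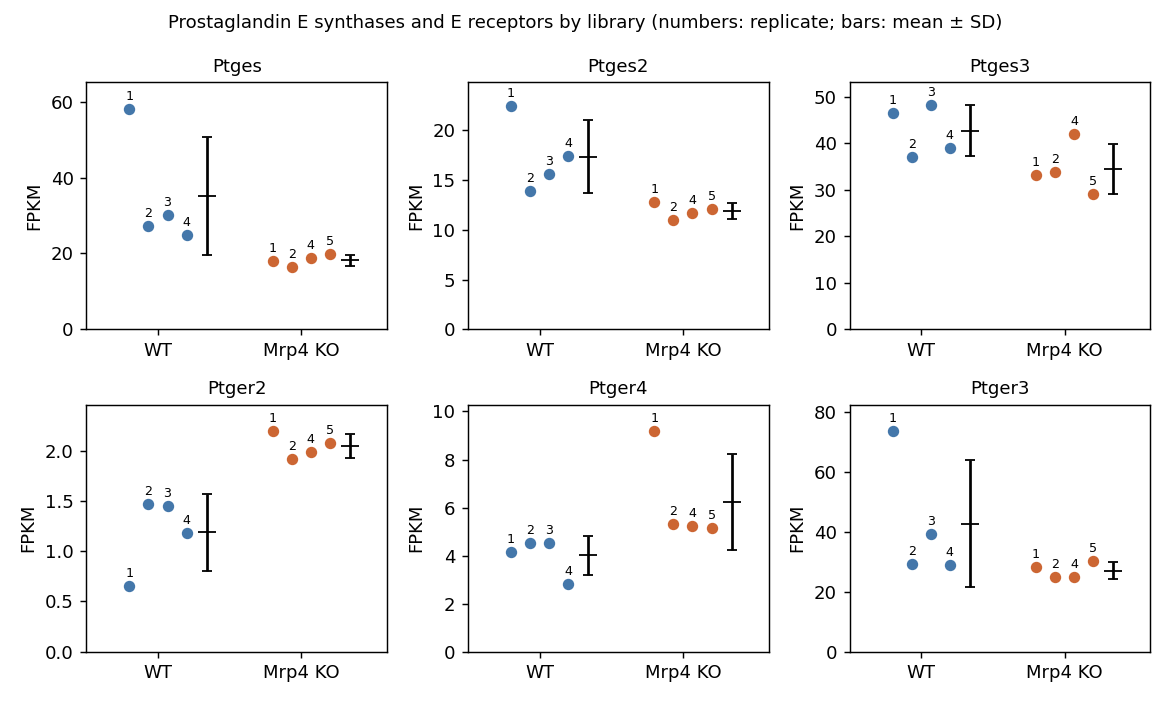
FPKM of the 3 prostaglandin E synthases and of the receptors Ptger2, Ptger4 and Ptger3 (y axes) in each library of WT (blue) and Mrp4 KO (orange). Numbers are replicates and bars are mean ± SD (n = 4). Ptges and Ptges2 have 4 of 4 Mrp4 KO points below the WT points, Ptger2 and Ptger4 have them above, and Ptges3 and Ptger3 overlap.

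None of the other tested terminal synthases passed. Akr1b3 encodes an aldose reductase that can make prostaglandin F2alpha, and it was the most abundant synthase, at 106, 84.3, 90.0 and 92.8 FPKM in WT and 82.4, 74.2, 83.0 and 89.2 FPKM in Mrp4 KO. The groups overlapped, with WT 1 highest and Mrp4 KO 2 lowest. Its log2 fold change was -0.24 ± 0.09 (unadjusted p = 0.025, edgeR adjusted p = 0.0902), and it passed without WT 2 (-0.30, adjusted p = 0.0397). It was the only one of the 28 genes whose expected counts were not whole, so reads shared with near-identical genes may have been divided among them and its level is uncertain. Ptgis, prostacyclin synthase, was at 25.8 to 37.4 FPKM in WT and 21.7 to 30.0 FPKM in Mrp4 KO (log2 fold change -0.30, adjusted p = 0.146). Tbxas1, thromboxane synthase, which is typical of platelets and macrophages, was at 8.04 to 10.9 FPKM in WT and 9.78 to 14.2 FPKM in Mrp4 KO (0.24, adjusted p = 0.184). Its highest library, Mrp4 KO 1, also had the highest macrophage marker sum (1649 FPKM), whose part in the value was not tested.

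The prostaglandin D synthases were scarce. Hpgds, the form of mast cells and other blood-derived cells, was at 1.09 to 1.88 FPKM over the 8 libraries (log2 fold change 0.12, adjusted p = 0.691). Ptgds, the lipocalin-type form, was at 0.18 to 2.71 FPKM on 2 to 30 expected counts (0.26 ± 0.59, SE, adjusted p = 0.787), a depth that leaves its direction undetermined. Mast cell markers summed to 55.8 to 89.1 FPKM in WT and 34.9 to 60.5 FPKM in Mrp4 KO, with 4 of the 7 tested lower and 1 higher (Kit). Cbr1, a carbonyl reductase that can convert prostaglandin E2, was at 27.8 to 37.3 FPKM (log2 fold change -0.17, adjusted p = 0.194). Akr1b8, an aldose reductase relative, was at 12.0 to 16.7 FPKM (0.15, adjusted p = 0.308).

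Akr1b7, picked out after its values were seen, was detected almost wholly in WT. It encodes an aldose reductase that makes prostaglandin F2alpha and was first known as the mouse vas deferens protein. Its level was 0.69, 67.6, 3.90 and 0.35 FPKM in WT, on 12, 1161, 68 and 6 expected counts. In Mrp4 KO it was 0.00, 0.11, 0.17 and 0.00 FPKM, on 0, 2, 3 and 0 counts. Thus each WT library was above each Mrp4 KO library, and 92.8% of the FPKM summed over the 8 libraries lay in WT 2 alone. The WT mean was 18.1 ± 33.0 FPKM with WT 2 and 1.65 ± 1.96 FPKM without it (SD, n = 4 and 3). The filter on low counts kept Akr1b7 out of the test. Where another filter or a left-out library let it in, the edgeR adjusted p ran from 0.0477 to 0.136 over 7 fits. It passed, lower, in 2 of them, the filter on a mean FPKM of at least 1 (adjusted p = 0.0477) and the fit without WT 4 (adjusted p = 0.0497). Akr1b7 entered these 2 fits through its WT level alone, so the calls lend no support to a difference.

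WT 2 also held a marker of the male duct beside the fat pad. Crisp1, a secreted protein of the epididymis, was at 0.20, 13.5, 0.60 and 0.05 FPKM in WT and at 0.00, 0.00, 0.00 and 0.05 FPKM in Mrp4 KO, so that it ranked the 4 WT libraries in the order 2, 3, 1 and 4, as did Akr1b7 and Ptgs2. Of 13 markers of epididymis and vas deferens, 8 were listed, and they summed to 2.10, 15.25, 2.87 and 1.28 FPKM in WT and 1.47 to 2.81 FPKM in Mrp4 KO. Crisp1 alone gave 13.5 FPKM of the sum in WT 2, so the high sum was that of 1 gene and not of the whole list. Lcn8, Adam7, Defb20 and Ros1 were at 0 in WT 2, and Lcn5, Lcn9, Rnase9, Cst11 and Gpx5 were listed in no library. The same library held the highest Ptgs2 value, although WT 2 carried only 38.4% of the Ptgs2 summed over the 8 libraries. The part of such transcripts in the levels of Akr1b7 and Ptgs2 was not tested.

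**Figure D3:**
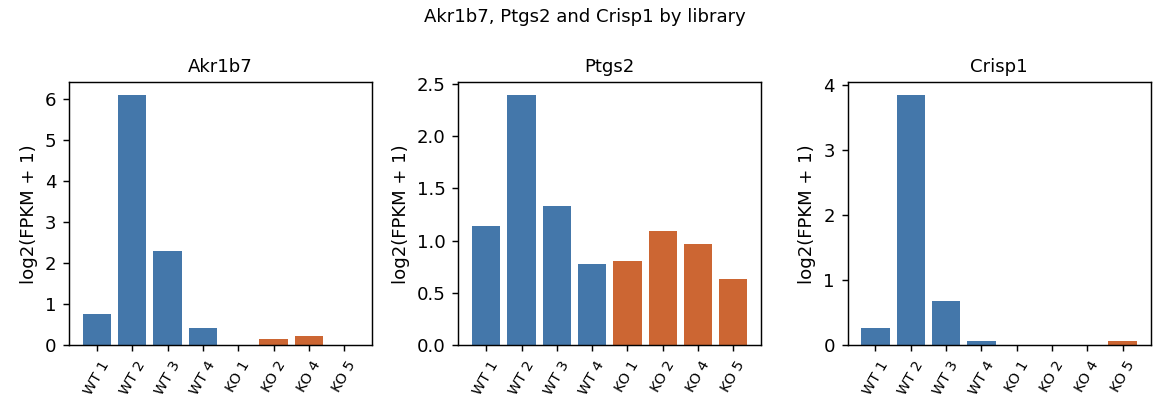
Akr1b7, Ptgs2 and the epididymal gene Crisp1 in each library (y axes, log2(FPKM + 1), each panel on its own scale, blue WT and orange Mrp4 KO). WT 2 has the tallest bar in each panel, at 67.6, 4.26 and 13.5 FPKM before the log.

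For uptake and breakdown, 0 of 4 genes passed. Hpgd, the dehydrogenase that inactivates prostaglandins and the most abundant of the group in mean level, was at 37.2, 53.8, 47.2 and 50.75 FPKM in WT and at 35.5, 57.1, 39.6 and 37.5 FPKM in Mrp4 KO. Mrp4 KO 2 was the highest library of all, and the other Mrp4 KO libraries lay below WT 2, 3 and 4 (log2 fold change -0.22 ± 0.16, adjusted p = 0.359). Slco2a1, the carrier that feeds Hpgd and is typical of endothelium, was named after its values were seen because 1 library decided its call. It was at 13.2, 15.7, 13.5 and 17.1 FPKM in WT and at 5.88, 16.8, 9.43 and 9.48 FPKM in Mrp4 KO. Except in Mrp4 KO 2, the Mrp4 KO values were below all of WT. The log2 fold change was -0.58 ± 0.26 (edgeR adjusted p = 0.146), and without Mrp4 KO 2 it was -0.90 (adjusted p = 0.0216).

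Mrp4 KO 2 was thus the highest Mrp4 KO library for both genes of the uptake and oxidation step. Mesothelial markers (9 listed, each above 0 in every library) summed to 283, 203, 310 and 207 FPKM in WT and to 75.8, 202, 206 and 136 FPKM in Mrp4 KO. Mrp4 KO 1 was lowest for Slco2a1, Hpgd and this sum, whereas Mrp4 KO 4 had a sum near that of Mrp4 KO 2 with a lower Slco2a1. Endothelial markers summed to 334 to 531 FPKM in WT and 562 to 602 FPKM in Mrp4 KO. The part of these cells in the carrier's level was not tested. The reductases that act on 15-keto prostaglandins after Hpgd did not pass. Ptgr1 was at 2.11 to 3.37 FPKM in WT and 2.73 to 4.12 FPKM in Mrp4 KO (log2 fold change 0.26, adjusted p = 0.307), and Ptgr2 was at 36.2 to 43.3 FPKM over all libraries (0.00, adjusted p = 0.980).

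**Figure D4:**
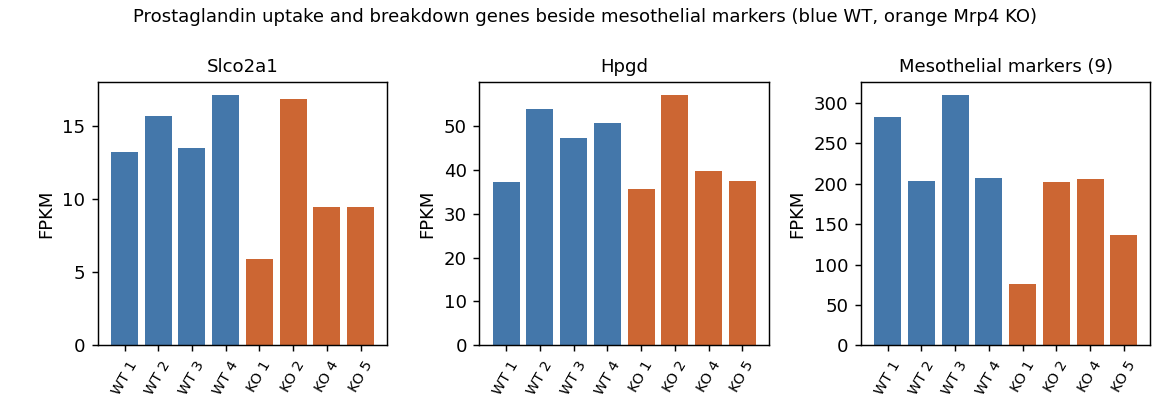
FPKM of the uptake carrier Slco2a1, of Hpgd and of the sum of 9 mesothelial markers (y axes) in each library of WT (blue) and Mrp4 KO (orange). Mrp4 KO 2 reaches 16.8 FPKM of Slco2a1 while the other Mrp4 KO bars stay between 5.88 and 9.48 FPKM, and Mrp4 KO 1 has the lowest bar in all 3 panels.

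Of the 7 tested receptors 1 passed, higher (14.3%, beside 18.3% of all tested genes). A positive log2 fold change was found in 6 of the 7, beside 7063 of all 14257 tested genes, and this difference was not tested. Ptger2 encodes EP2, a receptor that raises cyclic AMP. Its level was 0.65, 1.47, 1.45 and 1.18 FPKM in WT and 2.20, 1.92, 1.99 and 2.08 FPKM in Mrp4 KO. Each Mrp4 KO library was above each WT library, and WT 1 was the lowest. The mean went from 1.19 ± 0.382 to 2.05 ± 0.121 FPKM (SD, n = 4) on 35 to 119 expected counts per library. The call was close to the threshold: with 1 library left out the log2 fold change was 0.52 to 0.83, and the edgeR adjusted p rose past the threshold in 6 of 8 cases (0.0583 to 0.0973), holding without WT 1 or WT 2.

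Ptger4 encodes EP4, the other receptor that raises cyclic AMP, and was at 4.15, 4.53, 4.53 and 2.81 FPKM in WT and at 9.20, 5.31, 5.24 and 5.16 FPKM in Mrp4 KO. These groups did not overlap either, and Mrp4 KO 1 stood far above the rest. Its mean went from 4.00 ± 0.817 to 6.23 ± 1.98 FPKM, and the log2 fold change of 0.58 ± 0.21 did not pass (unadjusted p = 0.024, edgeR adjusted p = 0.0879). Both receptors are common on macrophages. The macrophage marker sum was above that of WT in 4 of 4 Mrp4 KO libraries and highest in Mrp4 KO 1, the library with the highest Ptger2 and Ptger4. The other Mrp4 KO libraries did not keep this order. The sums were 1190, 1440 and 1077 FPKM in Mrp4 KO 2, 4 and 5, with Ptger2 at 1.92, 1.99 and 2.08 FPKM. Ptger4 differed little among them. The part of macrophages in these values was not tested.

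Ptger3 encodes EP3, the adipocyte receptor that lowers cyclic AMP, and was the most abundant receptor per length in both groups. It was at 73.7, 29.2, 39.3 and 28.9 FPKM in WT and at 28.4, 24.8, 24.8 and 30.4 FPKM in Mrp4 KO. WT 1 was the highest of all libraries by far, and the groups overlapped through Mrp4 KO 5. Its mean went from 42.8 ± 21.2 to 27.1 ± 2.77 FPKM, with a log2 fold change of -0.72 ± 0.28 (unadjusted p = 0.028, edgeR adjusted p = 0.0980). Without WT 1 the log2 fold change was -0.32 (adjusted p = 0.128), and with DESeq2 on all libraries it was -0.73 (adjusted p = 0.0400). Hence Ptger3 was the only tested receptor with a negative value.

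Within a library, the ratios of Ptger4 and Ptger2 to Ptger3 separated the groups, as Ptger4 and Ptger2 did alone. Ptger4 divided by Ptger3 was 0.0563, 0.155, 0.115 and 0.0972 in WT and 0.324, 0.214, 0.212 and 0.170 in Mrp4 KO. Ptger2 divided by Ptger3 was 0.00882, 0.0503, 0.0369 and 0.0408 in WT and 0.0775, 0.0774, 0.0804 and 0.0685 in Mrp4 KO. In both ratios 4 of 4 Mrp4 KO libraries were above WT, and WT 1 was the lowest. Since Ptger2 and Ptger4 were already above WT without overlap and Ptger3 had a negative log2 fold change, the ratios add no independent separation. Over all tested genes, 23.5% had groups that did not overlap. The part of macrophage and adipocyte content in the ratios was not tested. The ratios were formed after the values were seen and are a description, with no test.

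**Figure D5:**
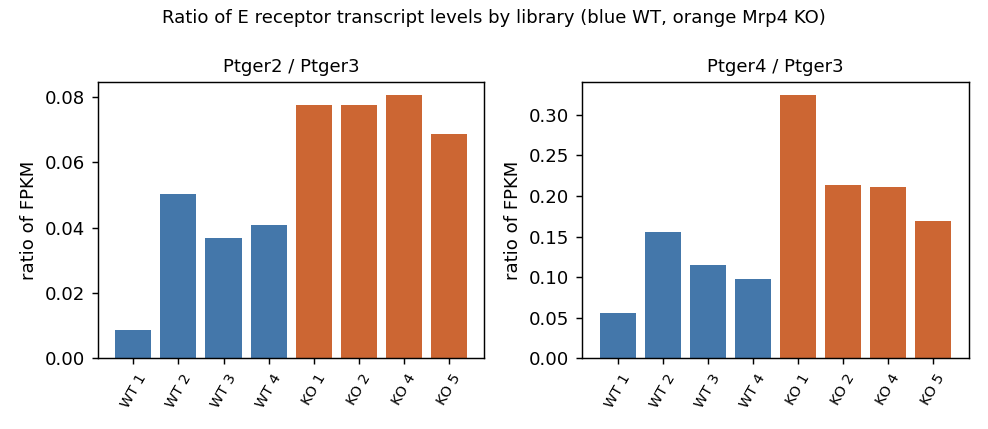
Ratio of the FPKM of Ptger2 (left) and Ptger4 (right) to that of Ptger3 within each library (y axes, linear, blue WT and orange Mrp4 KO). The Mrp4 KO bars run from 0.0685 to 0.0804 on the left and from 0.170 to 0.324 on the right, above the WT bars in both.

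Ptger1, encoding EP1, which acts through calcium, was at 10.5 to 13.5 FPKM in WT and 12.9 to 15.01 FPKM in Mrp4 KO (log2 fold change 0.14, adjusted p = 0.286). The groups overlapped. Its level is uncertain, since no use of strand is stated for the counting.

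The prostacyclin and thromboxane receptors were low. Ptgir, the prostacyclin receptor, was at 2.72, 2.70, 3.48 and 1.95 FPKM in WT and at 4.23, 3.46, 4.20 and 3.11 FPKM in Mrp4 KO. Its groups overlapped through WT 3, and the log2 fold change was 0.40 ± 0.17 (unadjusted p = 0.038, edgeR adjusted p = 0.118). Tbxa2r, the thromboxane receptor, was at 1.12, 1.37, 1.07 and 1.25 FPKM in WT and at 1.31, 2.71, 2.01 and 1.53 FPKM in Mrp4 KO. Only Mrp4 KO 1 lay within the WT range, and the log2 fold change was 0.57 ± 0.24 (unadjusted p = 0.041, edgeR adjusted p = 0.123). Mural cell markers, from cells known to carry both receptors, summed to 195 to 300 FPKM in WT and 292 to 358 FPKM in Mrp4 KO, with 3 of 8 higher, and their part was not tested.

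Ptgfr, the prostaglandin F receptor, was at 0.45 to 1.03 FPKM in WT and 0.64 to 1.37 FPKM in Mrp4 KO (log2 fold change 0.45, adjusted p = 0.312). The prostaglandin D receptors were at the edge of detection and were not tested. Ptgdr was at 0.00 to 0.11 FPKM on at most 5 expected counts. Gpr44 was at 0.05 to 0.22 FPKM on at most 8 counts, and 39% of its exon bases lie on exons of Ccdc86 on the opposite strand in the GENCODE annotation of GRCm38.

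The neighbouring pathways of arachidonic acid were counted beside the prostaglandin genes. Of 51 tested genes in 4 further lists, 13 rose and 4 fell (33.3%), beside the 18.3% of all tested genes. The difference from the prostaglandin genes was not tested. Among other phospholipases and genes of arachidonate handling, 4 of 17 rose and 2 fell. Pla2g2e, a secreted phospholipase of adipocytes, rose from 5.71 ± 1.42 to 12.1 ± 1.92 FPKM (log2 fold change 1.03 ± 0.19, edgeR adjusted p = 0.00801). Pla2g7, the secreted hydrolase of platelet activating factor and a macrophage product, rose from 12.6 ± 2.29 to 21.3 ± 3.45 FPKM (0.70, adjusted p = 0.0169). Anxa1, the phospholipase-binding annexin, rose from 177 ± 44.7 to 278 ± 16.1 FPKM (0.59, adjusted p = 0.0259, lost in 5 of 8 fits without 1 library). Hrasls, a relative of Pla2g16, also rose and stayed under 1 FPKM on average in both groups. Lpcat3, which puts arachidonate into membrane phospholipid, fell from 46.2 ± 7.46 to 33.0 ± 2.56 FPKM (-0.55, adjusted p = 0.0164), and Pla2g6 fell from 20.6 to 17.2 FPKM (-0.30, adjusted p = 0.0255, lost in 4 of 8).

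Of 12 other tested enzymes, transporters and partners of prostaglandins, 3 rose and 1 fell. Fam213b, which makes prostaglandin F2alpha and prostamide F2alpha, rose from 53.8 ± 5.43 to 96.6 ± 23.1 FPKM (log2 fold change 0.79 ± 0.16, edgeR adjusted p = 0.0130). Its values were 51.1, 61.8, 52.1 and 50.2 FPKM in WT and 101, 82.5, 75.7 and 127 FPKM in Mrp4 KO, without overlap. Akr1c14, a hydroxysteroid dehydrogenase of the aldo-keto reductase family, rose from 1.44 to 3.61 FPKM (1.26 ± 0.22, adjusted p = 0.00637). Ptgfrn, a membrane protein known as a negative regulator of the prostaglandin F receptor, rose from 18.1 to 23.9 FPKM (0.34, adjusted p = 0.0248, lost in 5 of 8 fits without 1 library). Zadh2, the prostaglandin reductase also called Ptgr3, fell from 24.6 to 18.7 FPKM (-0.46, adjusted p = 0.0323, likewise lost in 5 of 8).

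Of 11 tested genes of the leukotriene and lipoxygenase branch, 0 rose and 1 fell by edgeR, and 5 had an unadjusted p under 0.05. The fall was that of Ltc4s, leukotriene C4 synthase, from 189 ± 12.9 to 135 ± 29.7 FPKM (log2 fold change -0.55 ± 0.13, edgeR adjusted p = 0.0249). Mrp4 KO 4, at 178 FPKM, lay within the WT range of 176 to 206 FPKM, and the call was lost in 6 of 8 fits without 1 library. In a list of cytochrome P450 enzymes and epoxide hydrolases, 6 of 11 tested genes rose and 0 fell (54.5%, beside 18.3% of all tested genes). This list was not limited to enzymes that make or break down epoxides of arachidonic acid. Ephx1, microsomal epoxide hydrolase, rose from 41.3 ± 8.40 to 73.3 ± 11.0 FPKM (0.77, adjusted p = 0.0109), and Cyp4f18 from 4.91 to 8.63 FPKM (0.75, adjusted p = 0.0380, lost in 5 of 8). The cytochrome P450 genes Cyp2c44, Cyp2j5, Cyp4a12a and Cyp4f14, known from liver and kidney, rose from at most 0.453 FPKM in WT to means of 1.62 to 3.41 FPKM. Liver markers rose beside them in 12 of 12, from sums of 50.8 to 132 FPKM in WT to sums of 822 to 1512 FPKM in Mrp4 KO (Cyp2c29 was at 0 in WT 2), and their part in the P450 values was not tested.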

How the data were processed

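Polyadenylated RNA of epididymal fat was sequenced in paired reads on the BGISEQ-500 platform, per the labels' protocols, and aligned with Bowtie2 to mm9, per the submitters' processing notes. Its version, and which program estimated the counts, was not given in the sources used here. For each library the authors deposited an expected count and an FPKM value per gene. The deposited expected counts need not be whole (92.0% to 92.6% were) and sum to between 14064681 and 14700114 in a library, with no molecular identifiers. The authors' FPKM values were used for levels, as mean ± SD (n = 4), and a gene not listed in a library was taken as 0.

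Expected counts were rounded to whole numbers for edgeR 4.0.16 (R 4.3.3, TMM, filterByExpr by genotype, which kept 14257 genes and removed 4434, glmQLFit with robust estimation, glmQLFTest, two-sided, Benjamini-Hochberg, threshold 0.05). The SE is the size of the log2 fold change divided by the square root of F. Abcc4 was also compared by an exact permutation test on log2(FPKM + 1). Alternatives were other scalings and filters, DESeq2 1.42.0, limma 3.58.1, a replicate block, each library left out and thresholds of 0.1 and 0.01. The script was tested on simulated data. Replicate numbers are not stated to pair the libraries, and the values gave no sign that they do.

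The member list, the other gene lists and the markers were chosen with earlier results of these data known, and no list was tested as a set. By rule, values of every library are given for members with an unadjusted p under 0.05, for the most abundant member of each role, and for Pla2g16 and Ptger3. In the other lists, genes past the threshold are named where the higher group averaged 1 FPKM or more, and Hrasls was added after its values were seen. Akr1b7 and Slco2a1 were given in full after their values were seen. Promoters came from RefSeq and exon overlaps from GENCODE, both on GRCm38.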

Additional observations from a re-analysis of the deposited data

Results flagged for a closer look

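A library far from the other 3 of its group was found in 3 of the 56 groups of 4 FPKM values (28 genes in 2 genotypes), where chance flags about 1 in 20. Each had a gap to its nearest neighbour above Dixon's critical value for 4 values, as a share of the group's range. Ptges in WT 1 was at 58.22 FPKM, with the next WT library at 30.25 FPKM (a gap of 0.839 of the range). Akr1b7 in WT 2 was at 67.6 FPKM, with the next at 3.90 FPKM (0.947). Ptger4 in Mrp4 KO 1 was at 9.20 FPKM, with the next at 5.31 FPKM (0.963). Among the 25 tested members, WT 1 held the highest value in 5 (20%, beside 16.4% of all tested genes) and Mrp4 KO 1 in 6 (24%, beside 19.5%).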

How the results depend on the processing

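Ptges, Ptges2 and Ptger2 were called under each of the 9 other scalings, filters, tools and units, in the same direction. The number of members past the threshold (3; 1 higher, 2 lower) became 6 with DESeq2 (5 lower, with Ptgs2, Ptges3 and Ptger3 added), 4 with the filter on a mean FPKM of at least 1 (3 lower, with Akr1b7 added), 7 at a threshold of 0.1 (2 higher, 5 lower), 0 at 0.01 (0 higher, 0 lower) and 1 to 5 with 1 library left out (0 to 1 higher, 1 to 4 lower). Akr1b7 passed the FPKM filter through its WT level alone, so its call lends no support to a difference. The lowest number, 1, came without any one Mrp4 KO library (Ptges2 without 1 or 5, Slco2a1 without 2, Ptges3 without 4), and the highest, 5, without WT 2. With the replicate block it was 0 (0 higher, 0 lower), with log2 fold changes of -1.03 for Ptges, -0.66 for Ptges2 and 0.86 for Ptger2 (adjusted p = 0.109, 0.0649 and 0.142). Deviations of the libraries with the numbers 1, 2 and 4 correlated at 0.011, -0.075 and -0.128. These values gave no sign of pairing but cannot exclude it. The block fit compares the groups within these numbers only, since WT 3 and Mrp4 KO 5 have no partner. Over all genes, 2606 calls became 141 with the replicate block, 4178 at 0.1, 551 at 0.01 and 1172 (without WT 4) to 3683 (without WT 2) with 1 library left out. The share of them higher was 55.9% and became 74.1% with library size alone, 73.1% and 73.0% on log2(FPKM + 1) and log2(FPKM + 0.1). The members' median of 0.00 became 0.070 with library size alone, 0.064 on log2(FPKM + 1), and -0.047 (without Mrp4 KO 2) to 0.035 with 1 library left out. Abcc4 (-0.05) changed sign with library size alone (0.018), log2(FPKM + 1) (0.028), log2(FPKM + 0.1) (0.035) and the replicate block (0.015), and was -0.087 to -0.013 with 1 library left out. Signs also changed for Ptgs1 (0.042 with library size alone, 0.045 and 0.050 on the FPKM scales, 0.0034 with the block, -0.12 to 0.035 without 1 library), Ptgr2 (-0.0047 with no filter, -0.065 with the block, -0.041 to 0.055 without 1 library), Ptgds (-0.14 with limma-voom, -0.045 on log2(FPKM + 0.1), -0.18 with the block, -0.35 to 0.63 without 1 library) and Pla2g4a (0.0057 with the block). None of these 5 genes passed in any setting, and the cause of these changes was not tested. Fewer than 100 expected counts in at least 1 library limit Ptgs2, Ptgds, Hpgds, Akr1b7, Ptgr1, Ptger2, Ptgfr, Ptgir, Tbxa2r, Ptgdr and Gpr44.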

Other observations

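Genes with over 70% of their summed FPKM in 1 library and at least 50 expected counts were counted after the values of Akr1b7 were seen. There were 4 in WT 2: Gm9573 (98.5%), Crisp1 (93.7%), Akr1b7 (92.8%) and Serpina1f (90.5%). WT 1 had 21 such genes, WT 3, Mrp4 KO 1 and Mrp4 KO 4 had 1 each, and the other libraries had 0.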
